A study of Mus musculus with 12 samples.

Results

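Glutathione enzymes were followed in mouse mast cells as a set of 10 genes: Mgst1, Mgst3, Gstm1, Gstp1, Gsto1, Gsta4, Gclc, Gclm, Gpx1 and Gsr. The members were taken by gene symbol, as every probe set annotated with exactly 1 of these symbols. This gave 19 probe sets. Chip A held 18 of them among its 22626 sets, for all 10 members among its 12393 genes, and chip B held 1 among its 22511 sets, a further set of Gclm, for 1 of its 9607 genes. The group was chosen by gene function and with the signals of the 2 culture stages already known, the lower signal of Mgst1 in mature cultures among them. It was thus selected on the difference between the stages. Signals of the members at the 2 stages are therefore given as a description. Where members past a threshold are counted between the stages, the count only places them in the fit over the whole chip and is no test of the members. Only the comparison of the sexes was independent of the choice.

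The cells were grown from mouse bone marrow (femur and fibula) in RPMI medium with serum and interleukin-3 (IL-3), a growth factor of mast cells and other myeloid cells, which all cultures received. Mature mast cells were the cultures M2 and M4, labelled male, and M6, labelled female, after 57 to 110 days. Mast cell precursors were the cultures M3 and M5, labelled male, and M1, labelled female, after 14 to 16 days. The labels give no strain, no genetic change and no animal of origin for a culture, and put purity at about 80% at both stages, and list macrophages, monocytes and stromal cells among what else the cultures may hold. RNA of every culture was hybridised to both chips of the Affymetrix MOE430 set, MOE430A (chip A) and MOE430B (chip B), which makes 12 arrays, and p-values measure only the spread between these cultures.

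Glutathione is a tripeptide of glutamate, cysteine and glycine and the main small thiol of the cell. Glutamate-cysteine ligase, made of a catalytic subunit (Gclc) and a modifier subunit (Gclm), carries out the rate-limiting step of its synthesis. Glutathione transferases join it to reactive compounds, glutathione peroxidases use it to reduce peroxides, and glutathione reductase (Gsr) returns the oxidised form to the reduced one with NADPH. Many of these genes are targets of NRF2, a transcription factor that binds antioxidant response elements. In mast cells glutathione also enters leukotriene C4, made by a membrane enzyme of the same family (MAPEG) as Mgst1 and Mgst3.

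Signals of the brighter Mgst1 set and of Gstm1 were lower in the mature cultures. Promoter windows of Mgst1 and Gstm1 are printed below, with that of Gclm, the other member with a match to the antioxidant response element. They are taken from RefSeq (GRCm38.p6), 250 bases before to 50 after the annotated start, each on the strand of its gene. Capitals mark the core of the element, searched as TGACNNNGC on both strands.
Mgst1, chr6:138140277-138140576, plus strand: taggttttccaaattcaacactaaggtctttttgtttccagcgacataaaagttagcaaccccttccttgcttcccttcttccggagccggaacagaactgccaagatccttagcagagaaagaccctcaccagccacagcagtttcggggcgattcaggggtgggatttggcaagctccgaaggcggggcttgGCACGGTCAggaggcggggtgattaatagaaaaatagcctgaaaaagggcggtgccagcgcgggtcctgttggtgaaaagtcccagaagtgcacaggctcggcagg
Gstm1, chr3:108017769-108018068, minus strand: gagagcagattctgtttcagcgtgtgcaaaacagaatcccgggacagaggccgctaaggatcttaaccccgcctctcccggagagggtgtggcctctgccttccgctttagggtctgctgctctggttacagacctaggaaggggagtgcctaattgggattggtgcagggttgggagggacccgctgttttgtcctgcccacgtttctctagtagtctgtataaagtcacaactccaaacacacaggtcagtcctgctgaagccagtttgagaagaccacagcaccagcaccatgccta
Gclm, chr3:122245307-122245606, plus strand: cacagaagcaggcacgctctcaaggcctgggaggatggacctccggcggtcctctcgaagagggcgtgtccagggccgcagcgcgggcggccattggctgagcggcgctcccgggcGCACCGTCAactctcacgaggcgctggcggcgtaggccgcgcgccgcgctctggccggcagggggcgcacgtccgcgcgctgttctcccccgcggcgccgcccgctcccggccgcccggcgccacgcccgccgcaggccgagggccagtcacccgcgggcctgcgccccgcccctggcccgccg
In Mgst1 the match was on the minus strand, from base -56 to base -48 from the start site. The window at the other annotated start of Mgst1, not printed, held no match. In Gclm the match was also on the minus strand, from base -134 to base -126. The Gstm1 window held neither this core nor an AP-1 site, searched as TGANTCA, and carried a TATA box (TATAAA) from base -30 to base -25.

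RefSeq windows were found for 7 of the 10 members, 9 windows in all, since Mgst1 and Gstm1 had 2 starts each. The search for members left out 1 chromosome, which the count over all windows kept. The element's core was in 2 of the 9, against 12.4% of all 32851 promoter windows of the same length. The AP-1 site, which can share letters with that core but did not in these windows, was in 1 of 9, at base -74 to base -68 of Gstp1, against 7.81% of all windows. A GC box (GGGCGG) was in 6 of 9, against 35.7%, and a CCAAT box in 3 of 9, against 37.4%. Such a match describes letters and says nothing about binding in these cells.

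The deposited values are MAS5 signals, on an arbitrary linear scale on which the median probe set of an array lay at 534 to 692 (chip A) or 816 to 913 (chip B). Of the 19 member sets 15 passed the filter on dim sets, at least 3 of 6 arrays above the median of the whole table (582 on chip A, 864 on chip B), and these 15 stand for 9 genes. Those that did not pass were 1 set each of Mgst1, Mgst3 and Gsr and the single set of Gsta4. In bulk RNA, fewer cells of a type and less RNA per cell cannot be told apart, and with 3 arrays per group and chip the precision of each value is limited.

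**Figure D1:**
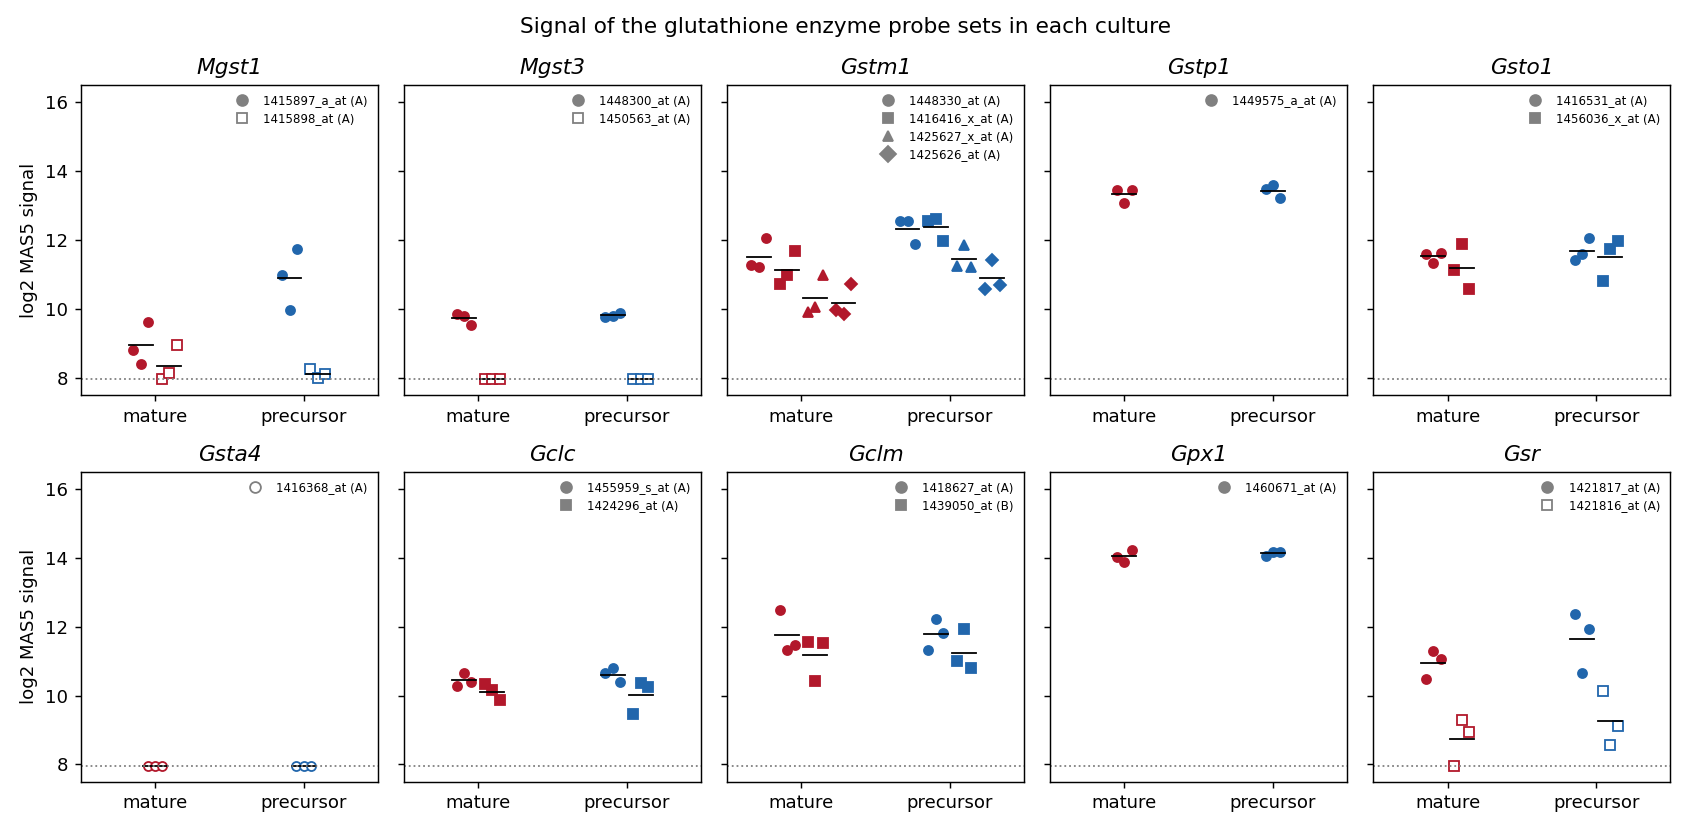
Log2 MAS5 signal of the 19 member probe sets, 1 panel per gene, with 1 point per culture (mature red, M2, M4 and M6 from left to right; precursor blue, M1, M3 and M5) and a bar at the mean of each group. Open symbols are sets that did not pass the filter, letters in the legends give the chip, and the dotted line is the floor of chip A. Mgst1 1415897_a_at and the Gstm1 sets lie lower in the mature cultures, but Mgst1 1415898_at does not. Gstp1 and Gpx1 are bright and level.

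Mgst1, a microsomal glutathione transferase and peroxidase of the endoplasmic reticulum and the outer mitochondrial membrane, had the largest difference of the 15 sets. Its brighter set (1415897_a_at) read 449 in M2, 338 in M4 and 791 in M6, the mature cultures, and 2033 in M1, 1003 in M3 and 3446 in M5, the precursor cultures. Every mature culture lay below every precursor culture. The mean log2 signal was 8.95 ± 0.63 in mature and 10.90 ± 0.89 in precursor cultures (SD, n = 3 each), a difference of -1.96 ± 0.46 (SE), or 3.88-fold lower in mature cultures. The spread within the precursors was itself 3.43-fold, and M2 and M4 lay below the median of the chip. The difference was -1.53 without M5 and -2.42 without M3.

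The dim Mgst1 set (1415898_at), designed on the same sequence, did not show this. It read 144 in M2, 282 in M4 and 492 in M6, mature, and 307 in M1, 253 in M3 and 277 in M5, precursor. All 6 values lay below the chip's median, the groups overlapped, and the set entered no fit. The 2 sets of Mgst1 thus differed, and the description of the gene rests on 1 set.

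Mgst3, a second membrane transferase with peroxidase activity, was level. Its brighter set (1448300_at) read 919.7, 895 and 737 in mature cultures M2, M4 and M6 and 877, 885 and 937 in precursor cultures M1, M3 and M5. The difference was -0.09 ± 0.28 (log2, SE), with overlapping groups. Its other set (1450563_at) was under the floor of 247 in all 6 cultures, between 42.7 and 89.4.

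Gstm1, a cytosolic transferase of the mu class, was represented by 4 sets, and all 4 were lower in the mature cultures. The set 1416416_x_at read 1679.6 in M2, 2033 in M4 and 3257 in M6, mature, and 5958 in M1, 6222 in M3 and 3989.7 in M5, precursor. The groups did not overlap, and the difference was -1.24 ± 0.31 (log2, SE), 2.37-fold lower in mature cultures. The set 1425627_x_at read 957, 1058 and 2041 in M2, M4 and M6, mature, and 2429, 3679 and 2362 in M1, M3 and M5, precursor, again with no overlap, at -1.12 ± 0.33.

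The other Gstm1 sets overlapped between the groups. The set 1448330_at read 2463, 2363 and 4278 in mature cultures M2, M4 and M6 and 5972, 5938 and 3737 in precursor cultures M1, M3 and M5, a difference of -0.80 ± 0.31. The set 1425626_at read 995, 925 and 1696 in M2, M4 and M6, mature, and 1516, 2719.8 and 1668 in M1, M3 and M5, precursor, a difference of -0.71 ± 0.33. In each of the 4 sets M6 was the brightest mature culture, by 1.81-fold to 2.13-fold over the dimmest, and it lay above M5 in 2 of them. Without M6 the 4 differences lay between -1.52 and -0.99.

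The 4 Gstm1 sets are not 4 measurements of independent transcripts. They were built on 2 source sequences, 2 sets on each, and sets whose names end in _x_at can also take up related transcripts, as mu-class genes are close paralogs. Of the paralogs Gstm3, Gstm4 and Gstm7, named here after their values were seen, the differences were -0.44 ± 0.33, -0.11 ± 0.28 and 0.47 ± 0.37, and none passed the threshold. How much of the Gstm1 signal came from a paralog was not tested.

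The pi-class enzyme Gstp1, a cytosolic transferase that also binds the kinase JNK, was bright in every culture. It read 11079.7 in M2, 8675 in M4 and 11186 in M6, mature, and 11507 in M1, 12422 in M3 and 9467 in M5, precursor. The difference was -0.11 ± 0.23, and the highest culture of either group exceeded its lowest by at most 1.31-fold.

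Gsto1, an omega-class enzyme that reduces dehydroascorbate and removes glutathione from proteins, was also found at both stages. Its set 1416531_at read 3099.6, 2579 and 3178 in mature cultures M2, M4 and M6 and 2731, 3102 and 4278 in precursor cultures M1, M3 and M5, a difference of -0.17 ± 0.26. The set 1456036_x_at read 2238, 3773 and 1513 in M2, M4 and M6, mature, and 1805, 3432 and 3991 in M1, M3 and M5, precursor, a difference of -0.32 ± 0.39. Both sets overlapped between the stages, but they ordered the cultures differently: M4 was the lowest of all in the first and the second highest in the other.

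Gsta4, an alpha-class transferase that acts on aldehydes from lipid peroxidation, was not measurable. Its set read 81.6, 98.8 and 67.3 in mature cultures M2, M4 and M6 and 56.3, 61.3 and 137 in precursor cultures M1, M3 and M5, all under the floor, so no fold is given.

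For synthesis, the catalytic subunit Gclc had 2 sets and the modifier subunit Gclm 1 on each chip, and none separated the stages. Gclc set 1455959_s_at read 1235, 1610.4 and 1343 in mature cultures M2, M4 and M6 and 1609, 1775 and 1336 in precursor cultures M1, M3 and M5, a difference of -0.17 ± 0.25. Gclc set 1424296_at read 1290.5, 1136 and 929.7 in M2, M4 and M6, mature, and 703, 1320.2 and 1216 in M1, M3 and M5, precursor, at 0.09 ± 0.31, the only positive difference among the 15 sets.

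Gclm set 1418627_at read 5760.1, 2556 and 2815 in mature cultures M2, M4 and M6 and 2553, 4825 and 3640.0 in precursor cultures M1, M3 and M5, a difference of -0.04 ± 0.35. The chip B set 1439050_at read 2986, 1361 and 2976 in M2, M4 and M6, mature, and 2052, 3884 and 1774 in M1, M3 and M5, precursor, a difference of -0.07 ± 0.40. Both Gclm sets spread by 1.89-fold to 2.25-fold within each group, far more than between the groups' means.

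Among the enzymes that use and restore glutathione, Gpx1, the selenoenzyme that reduces hydrogen peroxide, was bright and nearly level. It read 16578 in M2, 14985 in M4 and 19358 in M6, mature, and 17002 in M1, 18458 in M3 and 18559 in M5, precursor, a difference of -0.09 ± 0.21. Gsr, by contrast, varied 3.29-fold within the precursors. Its set 1421817_at read 1423, 2526.5 and 2156 in mature cultures M2, M4 and M6 and 5301, 1612 and 3927 in precursor cultures M1, M3 and M5.

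M1 and M5 were thus above all mature cultures in Gsr, and M3 lay between M2 and M6. The difference was -0.70 ± 0.41 (log2, SE), with overlapping groups, and depended on single cultures: it was -1.21 without M3 and -0.35 without M1. The dimmer Gsr set (1421816_at) read 64.3, 627 and 496 in M2, M4 and M6, mature, and 1128, 380.2 and 551 in M1, M3 and M5, precursor. It also had M1 highest and M3 the lowest precursor, but did not pass the filter.

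**Figure D2:**
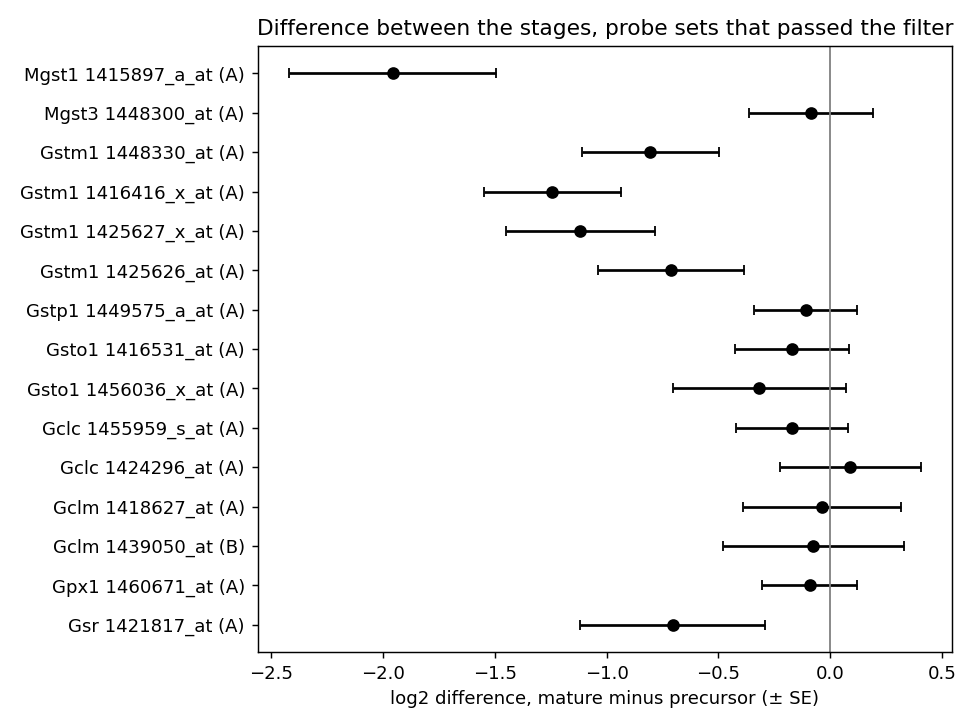
Log2 difference, mature minus precursor, of the 15 member sets that passed the filter, with 1 SE of the limma fit as the bar and the chip in brackets. Mgst1 at -1.96 and the 4 Gstm1 sets between -1.24 and -0.71 lie farthest from 0 together with Gsr, and the other 9 sets lie between -0.32 and 0.09.

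Counted over the members, 14 of the 15 differences were negative and 1 was positive. The median difference of the 14 sets of chip A was -0.24, against 0.02 for all 11576 sets that passed on that chip, of which 47.9% had a negative difference. Several sets each of Gstm1, Gsto1 and Gclc enter the members' median, so it is weighted toward those genes. In the limma fit over the whole chip with Benjamini-Hochberg adjustment, 0.527% of all chip A sets had an adjusted p under 0.05, and 0 of the 14 member sets were among them. On chip B 0.0926% of 11880 did, and 0 of 1 member set.

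At an unadjusted p under 0.05, 4 of the 14 chip A member sets were lower, Mgst1 and 3 of Gstm1, and none higher, beside 3.81% of all chip A sets called lower. The groups did not overlap, with mature lower, in 3 of 14, beside 6.06% of all sets. These counts come from the contrast that was known when the members were chosen and include several sets of 1 gene, so nothing is read from them. With array quality weights, 1 member set, Gstm1 1416416_x_at, passed the adjusted threshold.

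Many markers of monocytes and macrophages were also lower in the mature cultures, as the brighter Mgst1 set and the Gstm1 sets were. Of 14 tested monocyte and macrophage markers on chip A, of 20 listed, 8 fell in the mature cultures, among them Csf1r, Lyz2 and Cd68, and 0 rose. Over all chip A sets 0.527% passed the threshold in either direction. Cx3cr1, a chemokine receptor, did not pass and read 9974, 11399.7 and 11550.4 in mature cultures M2, M4 and M6 and 7927, 7968 and 8085 in precursor cultures M1, M3 and M5. The summed signal of the list was 20860.4 in M2, 32433 in M4 and 23824 in M6, mature, and 146543 in M1, 170239 in M3 and 207201 in M5, precursor. Lyz1 alone read 1971, 9110 and 1068 in M2, M4 and M6, mature, and 87406, 91070 and 100421 in M1, M3 and M5, precursor. The mean of the list, as log2 relative to its mean over all cultures, was -1.14 to -0.70 in mature and 0.64 to 1.35 in precursor cultures. Mpeg1 and Itgam were at the floor in all mature cultures, and C1qa was too but also in precursor cultures M1 and M3, while Csf1r still read 1408 to 1756 in the mature cultures.

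Of 7 tested neutrophil and granulocyte precursor markers, of 16 listed, 1 fell, Chil3, and 0 rose, beside 0.527% of all chip A sets past the threshold in either direction. The count leaves out Prtn3, Lcn2, Camp, S100a8 and S100a9, which were above the chip's median only in M1 and M5 and so did not pass the filter. The summed signal of the list's 12 genes on chip A was 3241, 4950.1 and 6079 in mature cultures M2, M4 and M6. It was 137362, 60351 and 295246 in precursor cultures M1, M3 and M5. In M3 nearly all of that sum was Chil3 at 56623, and Mpo read 614 there against 18908 in M1 and 39343 in M5. Chil3, Prtn3 and S100a8 were at the floor in all mature cultures, and Prtn3 and S100a8 also in precursor culture M3.

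Within the precursors Mgst1 was lowest in M3 and highest in M5, the order of the granulocyte sum. The monocyte and macrophage sum was lowest in M1, but its markers did not share an order. Ctss read 9277, 34132 and 17283 in M1, M3 and M5, lowest in M1. Csf1r read 12976, 6402 and 24274 there, the order of Mgst1. An order of so few cultures is easily shared, so no list is singled out by it. Gsr, like Mgst1, was lowest in M3 but was highest in M1, the order of the basophil sum (43843 in M1, 4348 in M3 and 26293 in M5). Most of that sum in M1 and M5 was Mcpt8, at 41656 in M1, 1502 in M3 and 24177 in M5. Itga2 had the same order (598, 354 and 512 in M1, M3 and M5), but Il4 was highest in M3 (1500, 2411 and 1539). Gstm1 1416416_x_at ran unlike both Mgst1 and Gsr, highest in M3 and lowest in M5. Of the 12 mast cell markers 11 were tested, 1 fell, Hdc, and 0 rose, and the summed signal was 536551 to 912601 in mature and 549693 to 651412 in precursor cultures. Mcpt4 was the marker that did not pass the filter. It read 300, 162 and 67.5 in mature cultures M2, M4 and M6 and 284, 276 and 1159 in precursor cultures M1, M3 and M5. Kit read 37208 to 47932 in mature and 27352 to 38961 in precursor cultures. Stromal markers summed to 8406 to 13347 in mature and 19722 to 28051 in precursor cultures, and 1 of 6 tested fell, Igfbp4. Igfbp4 alone read 2735 to 6055 in mature and 11496 to 18827 in precursor cultures, and the mean of the list, as log2 relative to the 6 cultures, was -0.30 to 0.08 in mature and 0.06 to 0.12 in precursor cultures. Basophil markers summed to 1981 to 4538 in mature and 4348 to 43843 in precursor cultures, with 0 of 3 past the threshold. The part of any of these cells in the members' signals was not tested.

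**Figure D3:**
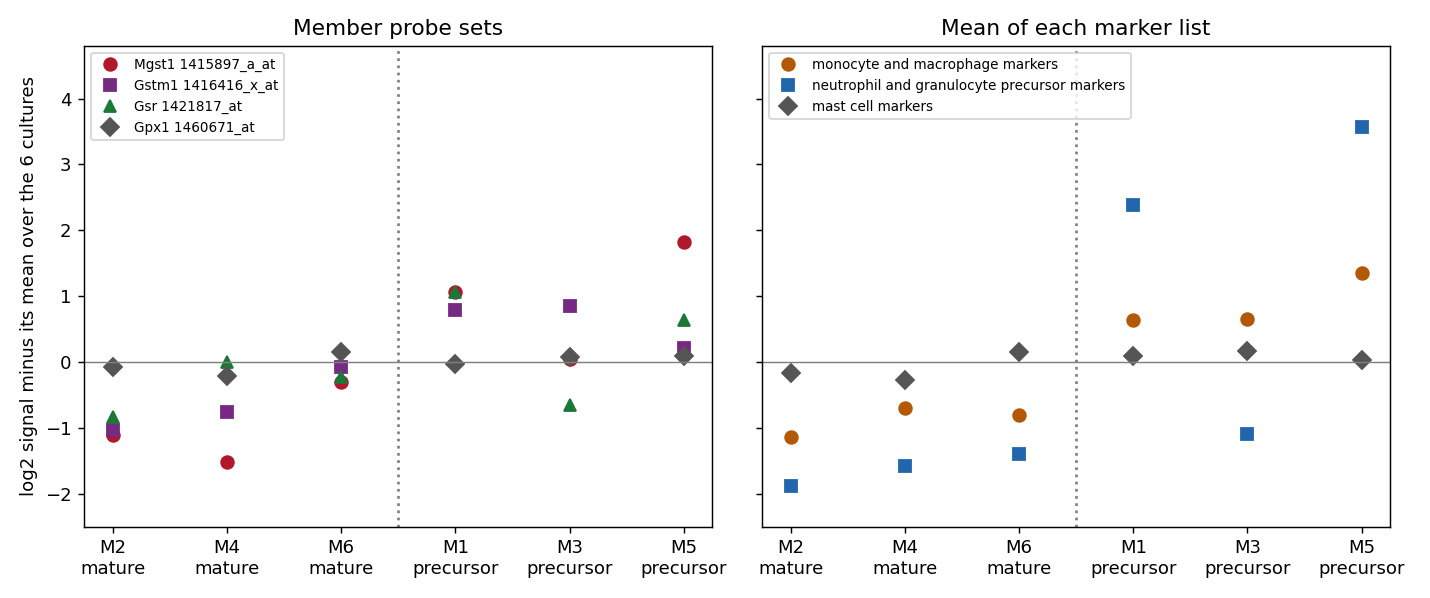
Left, log2 signal of 4 member sets in each culture, minus the mean of that set over the 6 cultures. Right, the mean of the same quantity over the genes of 3 marker lists on chip A. Mgst1 and the granulocyte list are both high in M1 and M5 and low in M2, M4 and M6, with M3 lower than the other precursors, whereas Gpx1 and the mast cell list stay near 0. In M3 the granulocyte list (-1.10) lies near the mature cultures (-1.88 to -1.40) and far below M1 (2.38) and M5 (3.57). The log2 signal of Mgst1 in M3 (9.97) lies above M2 (8.81), M4 (8.40) and M6 (9.63) and below M1 (10.99) and M5 (11.75). The monocyte and macrophage list is high in all precursors, with M1 and M3 close together.

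The probe sets whose pattern over the 6 cultures was most like Mgst1 1415897_a_at, by Pearson's r among 10603 candidate sets of chip A, were Ntpcr (r = 0.991), Ptpn18 (0.982), Tm2d2 (0.977), Cab39l (0.972), Nelfa (0.971) and Clec4d (0.971). The 6 points share the 2 stages, and high values are found easily among so many candidates. Clec4d, a C-type lectin receptor of myeloid cells, had a difference of -1.70 ± 0.42 between the stages. It read 507, 333 and 688 in mature cultures M2, M4 and M6 and 1229, 1131 and 2845 in precursor cultures M1, M3 and M5. The differences of the other 5 lay between -0.56 and -0.39, far smaller than that of Mgst1.

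The wider pathway was described with 8 lists of 111 genes that hold no member, of which 100 were on the chips and 75 were tested. At the adjusted threshold 0 rose, 0 fell and 75 did not pass, and the median difference was -0.10. At an unadjusted p under 0.05, 4 were lower, Prdx2, Glrx, Idh1 and Blvrb, and 0 higher, beside 3.81% of all sets lower on chip A and 3.32% on chip B. Each gene was taken by its brightest set, with chip A first. By the brightest set on either chip, an alternative chosen after seeing the data, 4 genes changed set, 0 rose or fell, and 5 were lower at the unadjusted threshold. The fifth was Cul3, the scaffold of the ligase that degrades NRF2, named after its values were seen. Its chip B set read 3163, 3249 and 1572 in mature cultures M2, M4 and M6 and 4397, 6329.8 and 8134 in precursor cultures M1, M3 and M5, at -1.27 ± 0.34 and without overlap, and its chip A set was at -0.42 ± 0.27.

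Among the other transferases and MAPEG proteins (10 tested, median 0.10), Gstk1, the transferase of mitochondria and peroxisomes, had the largest positive difference. It read 2067, 1319.6 and 1451 in mature cultures M2, M4 and M6 and 1165, 1034 and 956 in precursor cultures M1, M3 and M5, at 0.59 ± 0.27 and without overlap. Gstm3 was at -0.44 ± 0.33, and the brightest of the list, Alox5ap, which presents arachidonic acid for leukotriene synthesis, at 0.27 ± 0.25.

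For synthesis, cysteine supply and turnover (9 tested, median -0.13), the transporter subunit Slc3a2 was the brightest at 0.15 ± 0.27. Ggt5, a gamma-glutamyl transferase, was at 0.72 ± 0.50 on chip A but at 0.24 ± 0.28 by a brighter set on chip B, and Anpep, a membrane aminopeptidase, at -0.44 ± 0.42. Among peroxidases and peroxiredoxins (6 tested, median -0.07), the brightest, catalase (Cat), was at 0.30 ± 0.33 and Gpx4, which reduces lipid peroxides, at 0.52 ± 0.35. Prdx2, a peroxiredoxin, read 8578, 8785 and 5885 in mature cultures M2, M4 and M6 and 9516, 12648 and 11693 in precursor cultures M1, M3 and M5, at -0.56 ± 0.25.

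In the glutaredoxin and thioredoxin list (12 tested, median -0.04), Glrx, which removes glutathione from protein thiols, had the most negative difference of the 75 genes as chosen. It read 756, 389 and 144 in mature cultures M2, M4 and M6 and 1124, 664 and 2475 in precursor cultures M1, M3 and M5, at -1.56 ± 0.54. The groups overlapped, since M2 lay above M3. Glrx5 was the brightest at -0.16 ± 0.26, and Txnip, the thioredoxin-binding protein, was at 0.75 ± 0.37.

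For the supply of NADPH (11 tested, median -0.11), the transketolase Tkt was at 0.17 ± 0.38, Mthfd2 at 0.62 ± 0.35 and the isocitrate dehydrogenase Idh1 at -0.66 ± 0.27. Of the enzymes and pumps that use glutathione (8 tested, median -0.19), Adh5 was at -0.25 ± 0.24, Glo1 at 0.35 ± 0.34 and the export pump Abcc4 at -0.54 ± 0.33. Of the regulators and other targets of NRF2 (11 tested, median -0.05), the ferritin chain Fth1 was at -0.07 ± 0.29, the repressor Bach1 at 0.36 ± 0.34 and the biliverdin reductase Blvrb at -1.13 ± 0.49. In the list for selenoprotein synthesis (8 tested, median -0.25), which Gpx1 and Gpx4 depend on, Selenop was at 0.05 ± 0.31 and Sephs2 at 0.23 ± 0.36. The elongation factor Eefsec was at -0.97 ± 0.50. The differences of Blvrb and Eefsec depend on the floor, since M6 (204) in Blvrb and M4 (27.8) in Eefsec were raised to it.

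**Figure D4:**
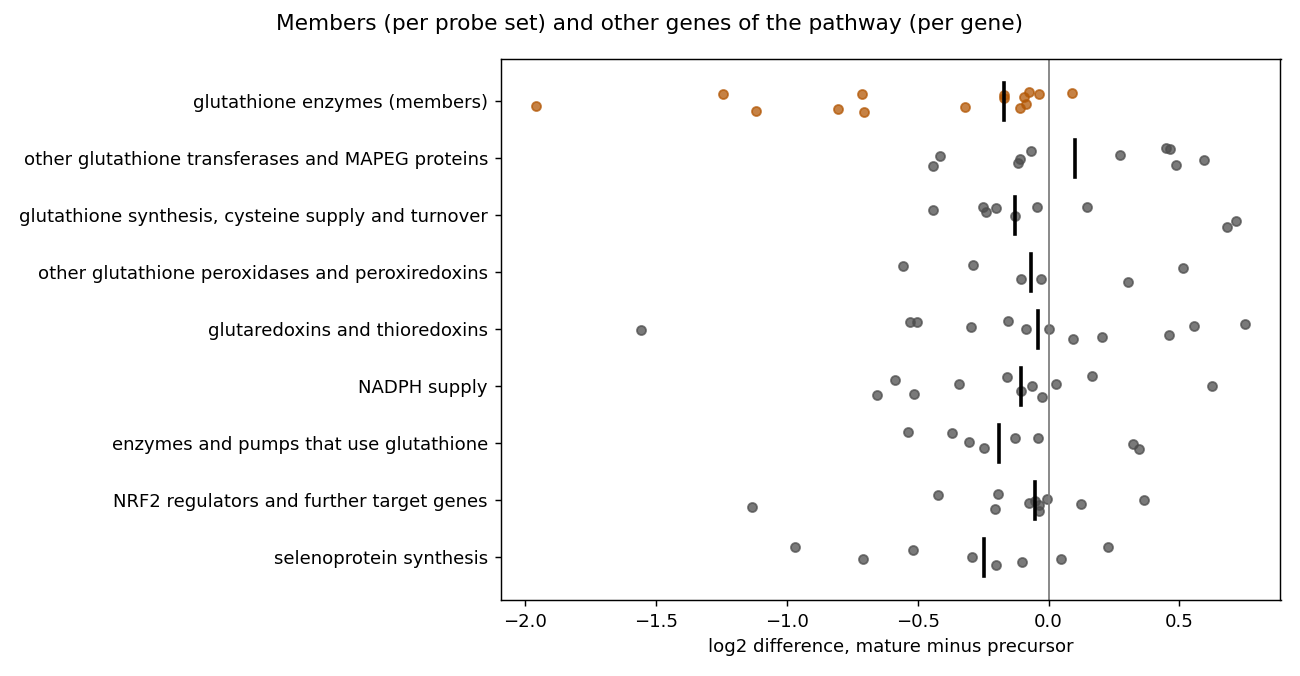
Log2 difference, mature minus precursor, of the 15 member sets (orange, top row, 1 point per probe set) and of the 75 tested genes of the 8 other lists (grey, 1 point per gene), with a bar at each median. The members' bar is a median over sets, with several sets for some genes, and cannot be compared directly with the other bars, which are over genes. Mgst1 lies farthest to the left of all points, followed by Glrx at -1.56.

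Whether the sexes differed in these enzymes could be asked apart from the choice of members. The labels were first set against sex-linked genes. Xist, expressed from the inactive X chromosome (1436936_s_at), read 926, 719, 887 and 687 in the cultures labelled male, M2, M4, M3 and M5, against 43301 and 37969 in those labelled female, M6 and M1. The Y-linked Eif2s3y (1417210_at) read 1175, 3134, 1761 and 2136 in M2, M4, M3 and M5, labelled male, and 1105 in M6 and 17.7 in M1, labelled female. M6 thus had both signals. Without it M1 is the only culture labelled female, so that its spread is taken from the others, and an interaction cannot be fitted.

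With the stage in the model, 0 of 14 member sets on chip A differed between the cultures labelled male and those labelled female at an adjusted p of 0.05, where 0.00864% of all sets did (1 set, of Xist), and 0 of 1 on chip B, where 0% did. At an unadjusted p under 0.05, 2 of 14 passed on chip A, beside 10.2% of all sets, and 0 of 1 on chip B. The share of members is near that of the chip. Without M6 the adjusted counts were 0 of 14 and 0 of 1, where 0.00864% of chip A and 0% of chip B sets passed, and 2 of 14 passed unadjusted, beside 5.79% of chip A. With an arm of 1 culture these counts say nothing about stability.

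One of these 2 was Gsto1 1456036_x_at, with 2238, 3773, 3432 and 3991 in M2, M4, M3 and M5, labelled male, and 1513 and 1805 in M6 and M1, labelled female. The groups did not overlap, and the difference was 0.99 ± 0.28 (log2, SE; adjusted p = 0.38 in limma). Without M6 it was 1.04 ± 0.41 (adjusted p = 0.83 in limma). The other Gsto1 set showed 0.12 ± 0.27. The second was Gclc 1424296_at, with 1290.5, 1136, 1320.2 and 1216 in M2, M4, M3 and M5, labelled male, and 929.7 and 703 in M6 and M1, labelled female, at 0.62 ± 0.27 (adjusted p = 0.49 in limma), and at 0.85 ± 0.35 without M6 (adjusted p = 0.84). The other Gclc set showed 0.00 ± 0.27.

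A difference between the sexes in the change with stage was fitted as an interaction, with 1 culture labelled female per stage and 2 residual degrees of freedom. At the adjusted threshold 0 of the 14 member sets of chip A passed, where 0% of all its sets did, and 0 of the 1 set of chip B, where likewise 0% did. At an unadjusted p under 0.05, 2 of 14 passed, beside 7.56% of all chip A sets, and 0 of 1 on chip B. Both were Gstm1 sets on 1 source sequence: 1425627_x_at at -1.30 (adjusted p = 0.65, limma) and 1425626_at at -1.31 (adjusted p = 0.66), where a negative value means that the difference between the stages was more negative in the cultures labelled male.

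The Gclm and Gclc sets that varied within the stages were set beside a labelling control. Probe sets for thr, a bacterial RNA used as a spiked control, cover its middle and its 3′ end, and on chip A the ratio of middle to 3′ signal was 0.118 in M2, 0.109 in M3 and 0.105 in M5, but 0.0545 in M4, 0.0338 in M6 and 0.0628 in M1. The classes cross the stages, but both cultures labelled female are of low ratio. Of the 14 member sets of chip A, 2 were higher in M2, M3 and M5 without overlap, beside 6.76% of all sets. Lower were 0 of them, but the share of all sets that were lower was not counted, so nothing is read from this.

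The 2 higher sets were Gclm 1418627_at and Gclc 1424296_at. Gclm 1418627_at read 5760.1, 4825 and 3640.0 in M2, M3 and M5, the cultures of high ratio, and 2556, 2815 and 2553 in M4, M6 and M1, those of low ratio. With the ratio class as a block its difference between the stages was 0.27, against -0.04 without, and that of Gclc 1424296_at was 0.29, against 0.09. Gclc 1424296_at was also the set with lower values in M6 and M1, so that sex and ratio class overlap for it. Gclm 1439050_at on chip B and Gclc 1455959_s_at overlapped between the classes. Mgst1, the 4 Gstm1 sets and Gsr overlapped too. The part of labelling in the 2 sets was not tested.

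**Figure D5:**
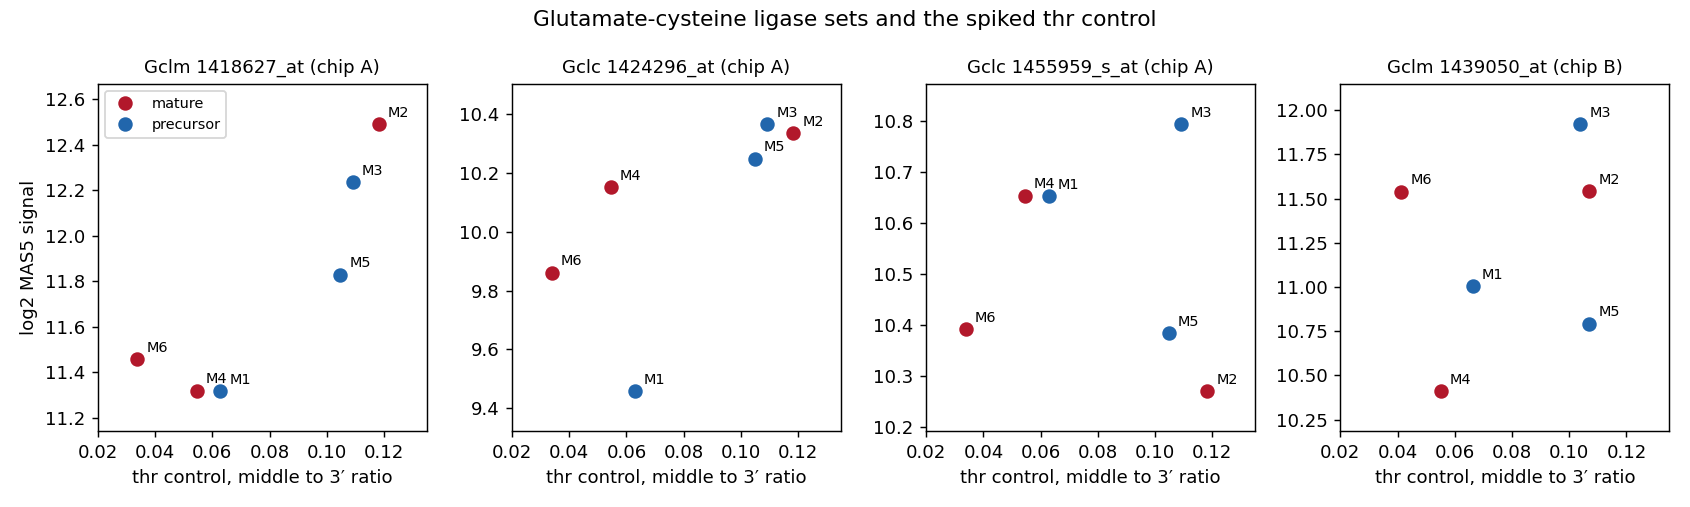
Log2 MAS5 signal of the 4 sets of Gclm and Gclc (y axis, a scale of its own in each panel) against the ratio of middle to 3′ signal of the thr control on the same array (x axis), with 1 point per culture, mature red and precursor blue. The first 2 sets are higher in M2, M3 and M5, the cultures with ratios above 0.1, and the last 2 overlap.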

How the data were processed

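Total RNA of 6 mast cell cultures was read on MOE430A and MOE430B arrays. The authors deposited linear intensity values for each probe set, made with MAS5 per the submitters' processing notes, with version and settings not given in the sources used here. The trimmed mean without the top and bottom 2% of sets was about 1500 on every array, so each array had been scaled. The deposited instrument records (1 per array) were read for the fluidics station.

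Each chip was handled apart. Before log2 was taken, low values were raised to a floor, the 30th percentile over all arrays of a chip (247 for chip A and 359 for chip B). Sets with at least 3 of 6 arrays above the table's median were kept. The stages were set against each other in limma (version 3.58.1, R version 4.3.3; lmFit, eBayes with an intensity trend, two-sided, Benjamini-Hochberg within a chip). Differences are mature minus precursor, SDs are among 3 cultures and SEs come from the fit. Sex was tested with the stage in the model.

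The members and lists were chosen with earlier results of these data known. Besides the members, the rule named of each pathway list every gene past the threshold, the brightest gene and the largest rise and fall, by each gene's brightest set that passed, chip A first, then the 6 sets most like Mgst1 and sex-linked genes. Other genes, including single markers, were named after their values were seen. Probe sets with 1 symbol numbered 20380 on chip A and 14661 on chip B in the platform annotation, sets with several 691 and 245, and sets with none 1555 and 7605. Alternatives were other floors, scalings and filters, no trend, array weights, blocks and each culture left out.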

Additional observations from a re-analysis of the deposited data

How the results depend on the processing

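The counts of member sets past the adjusted threshold between stages were 0 in 16 of 17 alternatives on chip A and in 17 of 17 on chip B, and those of the pathway genes 0 in 18 of 18, among them the brightest set on either chip, added after seeing the data. The exception was array quality weights, with 1 member set on chip A (Gstm1 1416416_x_at). Leaving out 1 culture at a time gave 0 member sets on either chip each time. The counts by sex were 0 in all 14 alternatives, of which those without M1 or M6 leave 1 culture labelled female, and the interaction was fitted in 1 way. No paired analysis was possible because the labels give the 2 groups different culture numbers. Over all sets of chip A, 61 passed. More passed with sex as a block (80), array quality weights (78) and the fluidics station as a block (62). Fewer passed in other alternatives, among them 1 with no filter on dim sets, 21 without M5 and 25 without M2. With the ratio class of the thr control as a block, an alternative chosen after seeing the data, 39 passed. On chip B 11 passed, but 0 with no filter, 3 without M6, 3 with no intensity trend, 4 with no floor, 5 without M2 or M4, 6 with that block, without M5 or above the 60th percentile, 7 with array weights and 17 with sex as a block or the floor at the 50th percentile. All 15 member differences moved by less than 1 SD among cultures, pooled over both groups, in the 17 alternatives, though for some sets by more than the SD of 1 group alone. The sign turned for Gclm (4 of 17 on chip A, 3 on chip B), Gclc 1424296_at (2), Mgst3, Gstp1 and Gsto1 1416531_at (1 each), all differences near 0, and in no alternative for Mgst1, Gstm1, Gpx1 or Gsr.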
